A study of Mus musculus with 20 samples.

Results

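The transcripts of the constitutive proteasome were followed in the retina of young and old mice with and without NACET, the ethyl ester of N-acetyl-l-cysteine, which enters cells and yields cysteine. The gene set was made of every symbol of the Psma, Psmb, Psmc, Psmd, Psme, Psmf and Psmg series, without the 3 immunoproteasome genes Psmb8, Psmb9 and Psmb10, whose mean level over the libraries reached 1 CPM (counts scaled to a total of 1000000 gene counts per library). It held 43 genes of 45 such symbols, out of 35006 genes counted. The members were 7 genes of the alpha ring and 7 of the beta ring of the core particle, 9 of the base and 8 of the lid of the regulatory particle, 5 activators and inhibitors, and 7 assembly chaperones. The member with the lowest mean was Psmg4, at 5.59 CPM, and both excluded symbols lay far below the limit: Psma8, the testis form of an alpha subunit, was at 0.053 CPM and Psmb11, the thymus form of a beta subunit, at 0.016 CPM.

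The libraries came from 20 C57BL/6J mice, an inbred strain, with 1 retina and 1 polyA RNA-seq library per mouse. Young controls (4 mice) were 119 days old, and young NACET mice (6) were 119 or 129 days old. Old controls (4) were 668 days old, and old NACET mice (6) were 574, 581 or 668 days old. Treated mice drank water with NACET, 50 mg/kg daily, over 5 days, and controls received none. By the labels, 2 young controls and 2 young NACET mice were female and every old mouse was male.

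The proteasome is the protease that degrades ubiquitin-tagged proteins in the cytosol and nucleus. Its barrel-shaped core holds the proteolytic sites on the inner face of the beta rings, and the regulatory particle that caps it binds ubiquitin chains, removes them and unfolds the substrate with a ring of ATPases. Photoreceptors renew their proteins at a high rate and depend on this clearance, and under interferon the catalytic beta subunits are exchanged for those of the immunoproteasome. The transcription factors NRF1 (gene Nfe2l1) and NRF2 (gene Nfe2l2) bind antioxidant response elements and are known to drive proteasome genes, and NACET was tested in the study as an inducer of NRF2.

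Because of that link, the antioxidant response core was looked for upstream of the members. RefSeq promoter windows (GRCm38.p6, 250 bases before to 50 after each start) were at hand for 36 of the 43 members, in 39 windows. The letters TGACNNNGC, read on both strands, were in 6 of these 39 windows (15.4%), beside 12.4% of all 32841 windows of that length. The sites within 50 bases of a start belonged to the beta subunits Psmb5 and Psmb6, the base chaperone Psmd9 and the activator Psme4. They are shown 5′ to 3′ on the strand that reads the motif, with the motif in capitals, because these are the members for which an NRF2-type site could be read next to the start:
Psmb5, chr14:54618024-54618052, minus strand, centre 43 bases before the start: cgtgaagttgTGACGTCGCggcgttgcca
Psmb6, chr11:70525338-70525366, plus strand, 5 bases before: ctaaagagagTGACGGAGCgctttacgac
Psmd9, chr5:123228149-123228177, plus strand, 27 bases before: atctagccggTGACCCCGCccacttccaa
Psme4, chr11:30771758-30771786, minus strand, opposite to the gene and 3 bases before: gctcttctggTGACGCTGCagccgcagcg
The other 2 sites, in Psmc6 and Psmd12, were 223 and 243 bases before the start. The GC box letters GGCGGG, read on both strands and whether or not they overlapped the first motif, were in 66.7% of the member windows and in 35.3% of all windows, with no matching on base composition. A match is a description of the sequence and no evidence of binding.

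Libraries held 17700500 to 31081959 gene counts, so that the members were counted with 93 or more reads in every library. The cone markers Arr3, Opn1sw, Opn1mw, Gnat2 and Pde6c summed to 1433 to 1972 CPM in the 20 libraries and the 5 Muller glia markers to 1843 to 2629.9 CPM, so the labelled tissue was present in each. The summed corneal and conjunctival epithelium markers ran from 3.99 to 383 CPM in young NACET mice, with a median of 111 CPM, beside at most 12.5 CPM in young controls and 10.1 CPM in old NACET mice, and reached 402 CPM in old control 2. Lens markers reached 5325 CPM in old NACET 1, whereas the other old NACET libraries had far less. Old control 4, labelled male, held 59555 Xist counts and 1 count of Y-linked genes and so went against its label. These markers were not tested for a part in the results below.

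The members together took 2552 to 3001 CPM, or about 0.255% to 0.300% of gene counts. Their sums were 2997, 2622, 2552 and 2821 CPM in the young controls and 2747, 2707, 2720.0 and 2718 CPM in the old controls. In young NACET mice the sum was 2638 at the lowest, 2769 at the median and 3001 at the highest, and in old NACET mice it was 2709.6 at the lowest, 2791 at the median and 2913 at the highest. The group means lay between 2723 and 2798 CPM, closer together than the young controls were among themselves, whose SD was 202 CPM, against 17.0 CPM in the old controls.

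Among the young controls 1 library stood apart. Young control 1 had the highest value of its group for 30 of the 43 members, including all 14 core genes, and its median member was 0.20 higher on the log2 scale than the mean of the other 3 young controls. That median was 0.31 in the core and 0.087 in the lid, whereas the activators and the inhibitor went the other way at -0.12. Young NACET 2 had the highest value of its group for 26 members and old NACET 6 for 22, with smaller medians in the core, 0.14 and 0.094, and 0.12 and 0.049 in the lid. Young control 1 and young NACET 2 had the lowest shares of reads outside annotated genes, 14.3% and 14.1%, against 16.2% to 20.5% in the other 18 libraries and 17.6% in old NACET 6. The Spearman correlation of the difference with transcript length over the 43 members, a description over genes of 1 library, was -0.50 in young control 1 but also in old control 4, whose median member was 0.0072 from the others, and it reached 0.51 in young control 2. The part of RNA quality or library preparation was not tested. Without young control 1 the estimate changed sign in 14 of the 43 members with age in controls, in 15 with NACET in young mice and in 15 in the interaction.

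**Figure D1:**
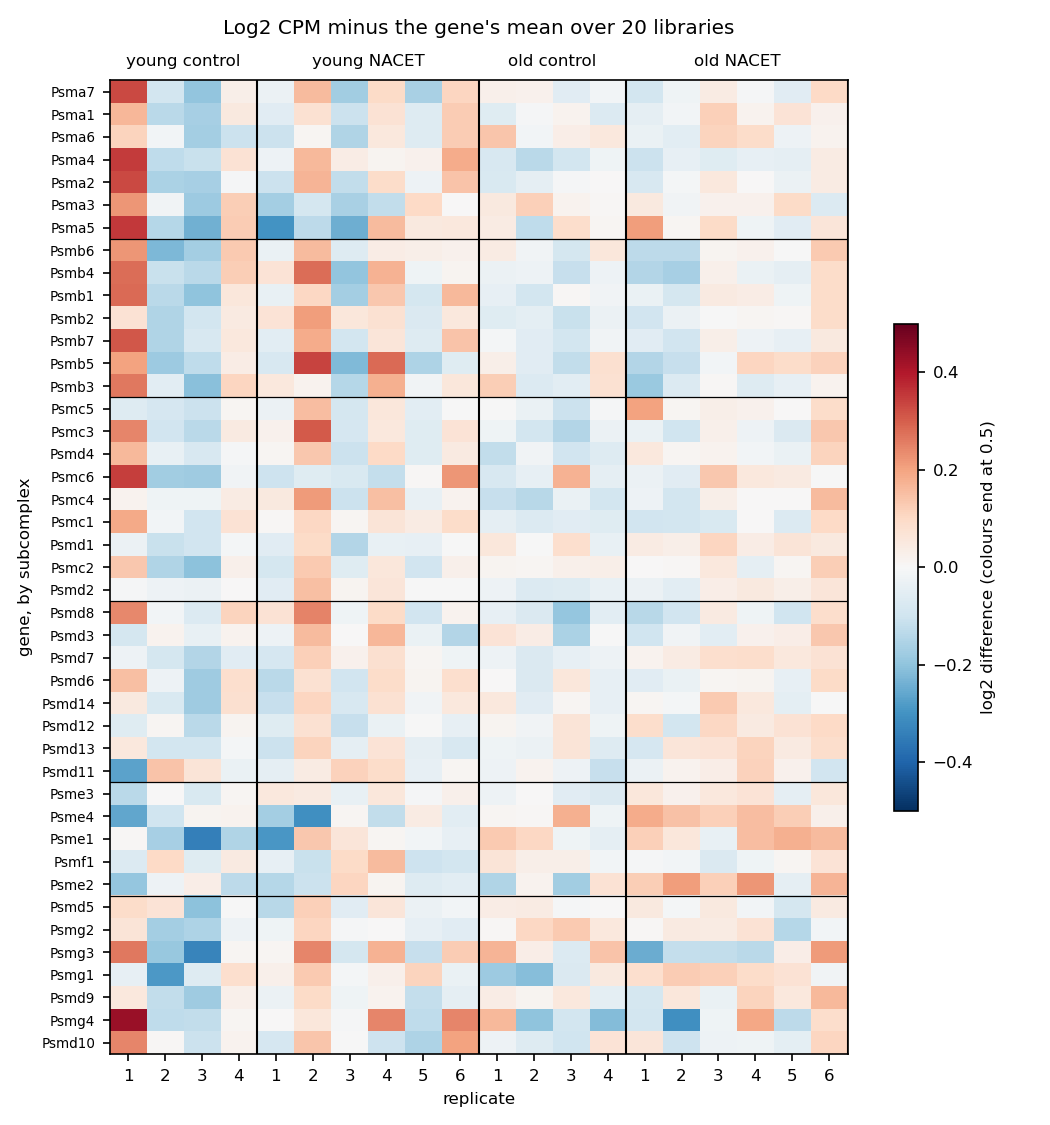
Log2 CPM of each of the 43 members (rows, by subcomplex) in each of the 20 libraries (columns, by group and replicate), minus the gene's mean over the libraries. Red is above and blue below the mean, and the colours end at 0.5. Young control 1 is red over the 14 core genes and blue in Psmd11 and Psme4, and the old controls differ little from each other.

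The measured transcripts of the complex were not at 1 common level per kilobase. Per kilobase of the longest coding transcript, the median level was 60.1 CPM in the beta ring and 60.3 CPM in the base, 40.2 CPM in the lid, 34.8 CPM in the alpha ring, 15.9 CPM in the activators and the inhibitor and 13.8 CPM in the assembly chaperones. Psmb6, the caspase-like catalytic subunit, was highest at 101 CPM per kilobase, followed by Psmb4 at 91.8, a structural beta subunit, and the alpha subunit Psma7 at 91.0. Psmc5, an ATPase of the base, was at 83.6 and Psmd8, a lid subunit, at 72.1 CPM per kilobase. The lowest were the base chaperone Psmd10 (7.73) and the activator subunit Psme2 (7.87). The order depended on the length used: per kilobase of all annotated exons Psmc5 (79.0) and Psmb4 (78.5) were highest and Psmb6 was at 42.95 CPM.

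Subunits that enter the core in equal numbers were far apart on the same scale. The alpha ring ran from 91.0 CPM per kilobase for Psma7 to 9.74 for Psma5. The catalytic subunits were 101 for Psmb6, 58.6 for Psmb7, the trypsin-like one, and 40.6 for Psmb5, the chymotrypsin-like one. These gaps depended on the length used. Per kilobase of all annotated exons Psmb6, Psmb7 and Psmb5 were at 42.95, 56.0 and 38.4 CPM. The alpha ring then ran from 46.1 for Psma6 to 9.14 for Psma5, with Psma7 at 27.1. Some of the low values came with near-identical copies in the genome. Matches of 75 or more bases at 97% or more identity were found elsewhere for 11 of the 43 members, and covered over 50% of the transcript in 7: Psmb5 (99.9%), Psma4 (99.7%), Psmb3 (97.4%), Psmd2 (91.9%), Psme2 (82.5%), Psma5 (79.6%) and Psmd11 (54.6%). The counter set aside reads with several alignments, so the levels of these 7 are uncertain. Their median was 26.5 CPM per kilobase, against 45.2 in the other 36. The copy Psme2b-ps was itself counted at 13.5 to 19.6 CPM, above Psme2 in every library (6.60 to 8.79 CPM).

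**Figure D2:**
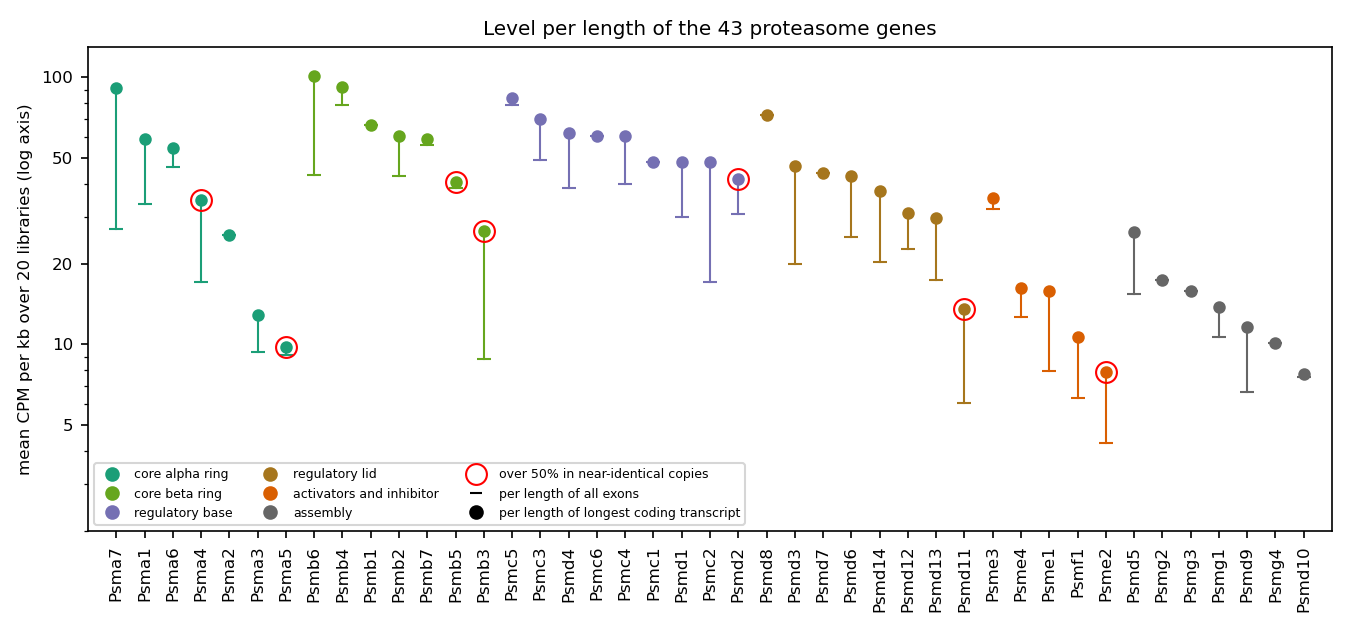
Mean level of each member over 20 libraries in CPM per kilobase (log axis), by subcomplex. Points use the length of the longest coding transcript and dashes the length of all exons, joined by a line, and red circles mark the 7 genes with over 50% of the transcript in near-identical copies. Psmb6 is highest by the first length, and Psme2 and Psmd10 are at the bottom.

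No member was called in any of the 5 comparisons by edgeR's quasi-likelihood test at an adjusted p under 0.05 over all genes tested. In old against young controls 0 of 43 were called, beside 1.42% of all 16484 genes tested, and 2 members had an unadjusted p under 0.05 (4.65%) beside 16.3% of all genes. In old NACET against old control mice 0 were called beside 0.543% of 16562 genes, and 2 had an unadjusted p under 0.05 beside 14.4%. In old against young NACET mice 0 were called beside 4.88% of 16276 genes, and 5 (11.6%) had an unadjusted p under 0.05 beside 21.1%. In young NACET against young control mice and in the interaction of NACET with age 0 genes were called among all 16588 and 16993, and 0 members had an unadjusted p under 0.05 beside 4.36% and 6.19% of all genes. DESeq2 called 0 members in 4 of the comparisons and 1, Psme4, in old against young NACET mice, beside 7.33% of all genes with an adjusted p.

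The intervals give a range for the change of each gene, without a covariate and without adjustment over genes. The 95% interval of the log2 change lay within ±0.5, a 1.41-fold change, for 42 of the 43 members in old against young controls and for all 43 in the other 3 pairwise comparisons; over all genes the shares were 70.6%, 79.1%, 75.7% and 79.0%. The exception was the chaperone Psmg4, the member with the fewest reads. The point estimates ran from -0.21 to 0.15 with age in controls and from -0.13 to 0.18 with NACET in old mice.

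**Figure D3:**
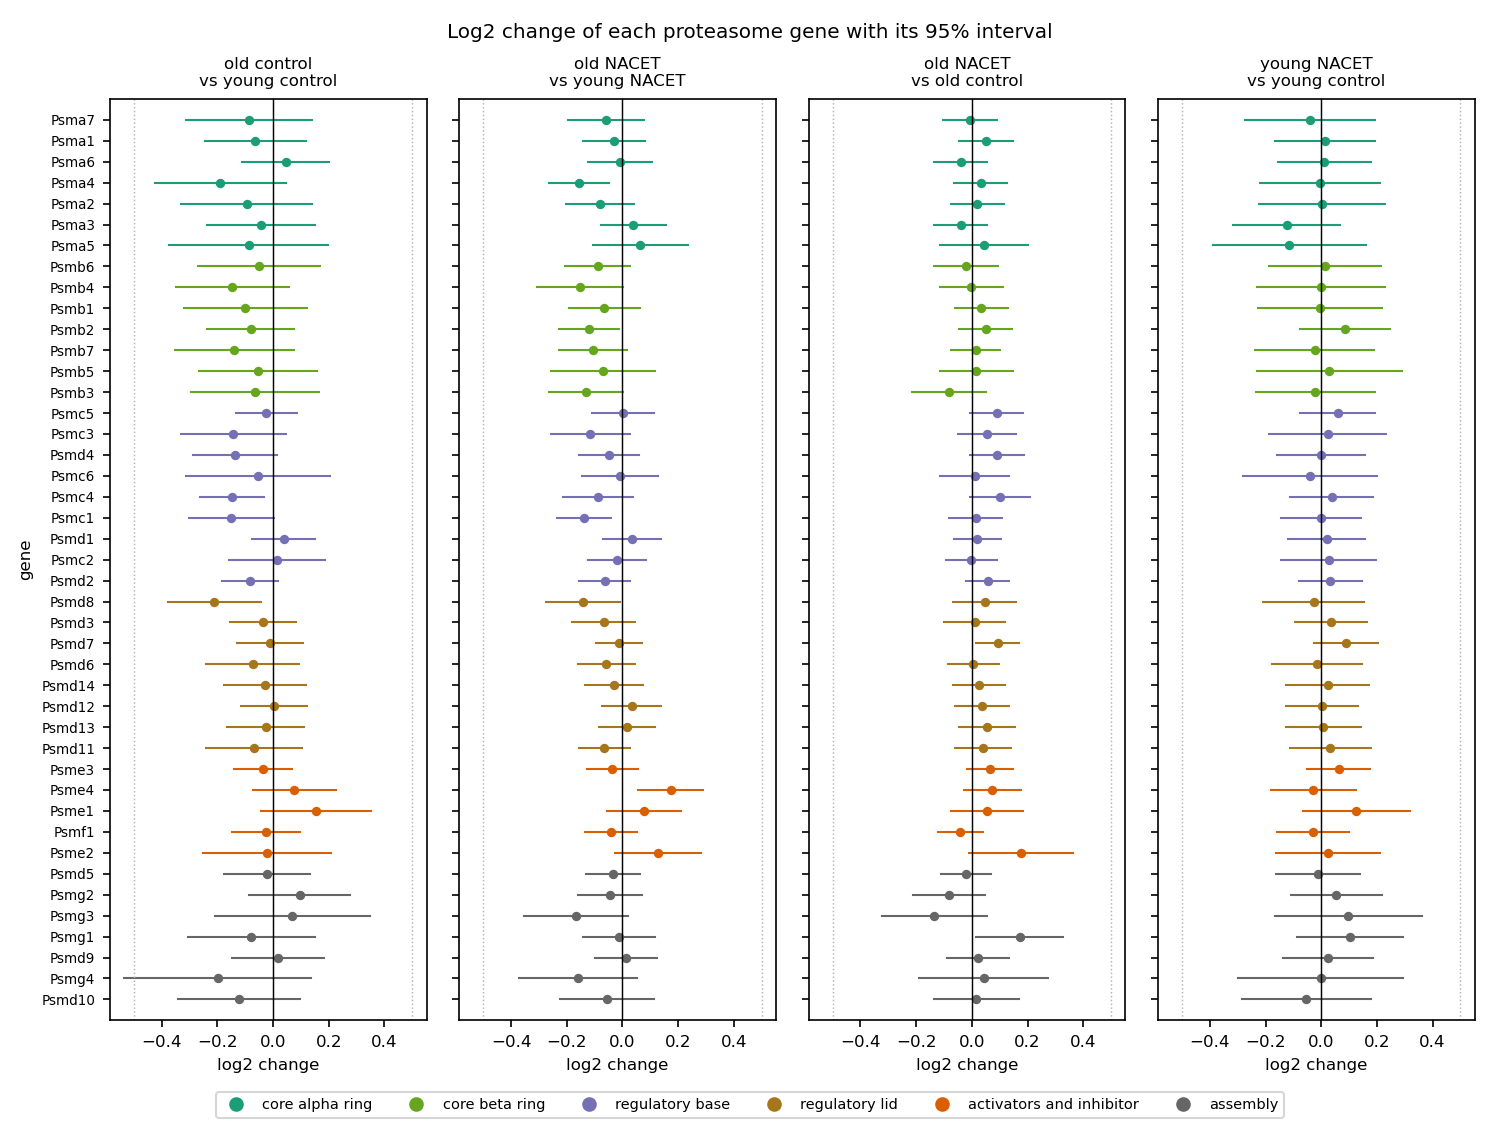
Log2 change (points) and its 95% interval (lines) of the 43 members in 4 comparisons, coloured by subcomplex; dotted lines mark ±0.5. No member is called, and of these intervals only that of Psmg4 with age in controls passes a dotted line.

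The members' directions with age were uneven but small. In old against young controls the log2 change was positive in 9 of 43 members, with a median of -0.055, beside -0.0068 over all genes. Without young control 1 the median turned to 0.012 and 23 members were positive, and without old control 4 it was -0.072. In NACET-treated mice, which share no library with the controls, 10 of 43 were positive and the median was -0.047. Over all genes 49.65% were positive and the median was -0.0013. The negative sign of the members' median held in every alternative run for that comparison. By the labels young NACET 5 and 6 were female and every old mouse was male. The CPM ranges of old and young NACET mice were apart in 0 of 43 members, beside 4.07% of all genes.

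With NACET in old mice 32 of 43 members were positive, with a median of 0.026 beside 0.0021 over all genes. All 8 lid genes and 8 of 9 base genes were positive, and 8 of 14 core genes. The direction did not hold within 1 cohort: with only 668-day mice the median was -0.017 and 15 members were positive, and with the cohort as a covariate it was -0.022 and 11 were positive. Both fits rest on the same treated mice, old NACET 1 and 2, because all old controls were 668 days old. Old NACET 1 is the library with lens transcripts. In young mice 26 of 43 were positive with NACET and the median was 0.010, which turned to -0.036 with the batch tag as a covariate and to 0.080, with 39 positive, without young control 1. The tag is an age in days, 119 in all young controls and, of the treated mice, only in young NACET 5. The effect in that fit rests on this library. Young NACET 6 had 129 in the tag and 119 in the title. The median was also negative without young control 2, young control 3 or young NACET 2 and among labelled males. In the interaction 25 of 43 were positive with a median of 0.017, which was -0.049 without young control 1. The ranges of young NACET and young control mice were apart in 0 of 43 members, beside 0.723% of all genes. The comparisons of NACET with control share their control libraries with the comparison of ages.

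**Figure D4:**
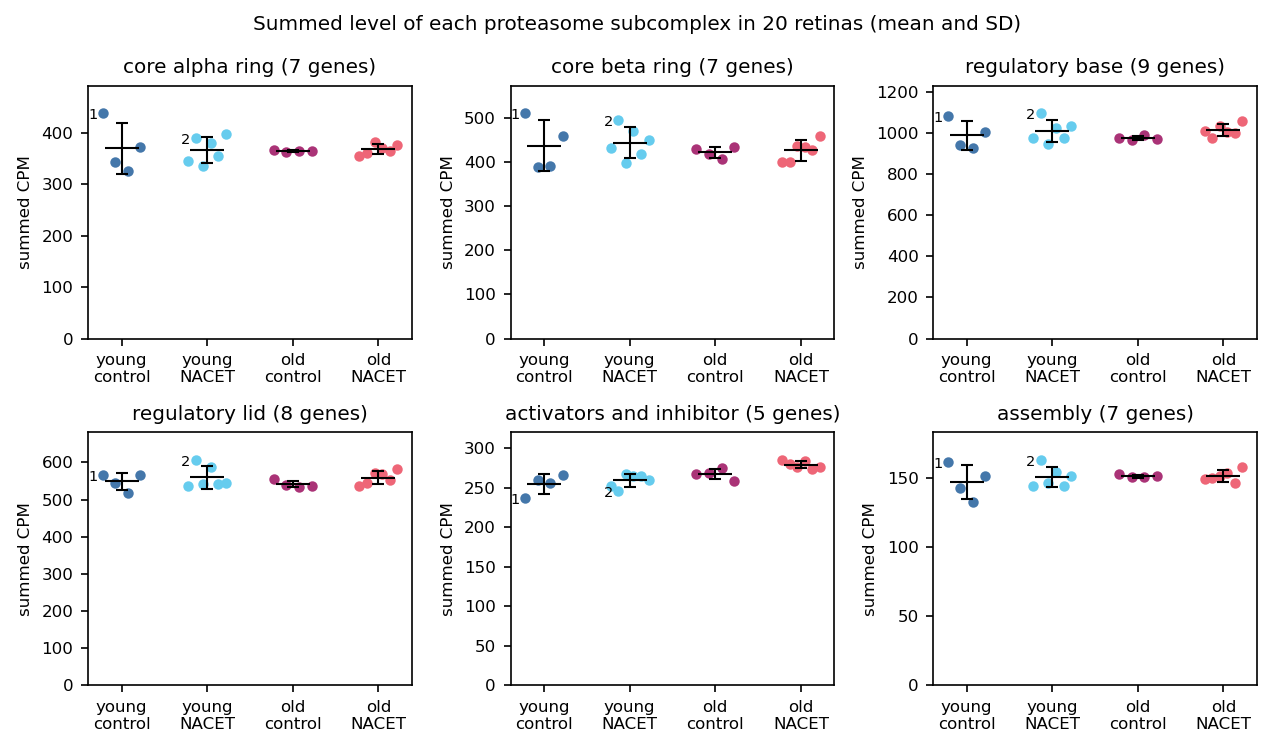
Summed CPM of each subcomplex (y axis from 0) in each library, by group, with the mean and SD in black. The label 1 marks young control 1 and 2 marks young NACET 2. In the activators and inhibitor panel all 6 old NACET libraries are above all 6 young NACET libraries on CPM, which do not hold the TMM factors. With those applied the treated ages overlap.

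The 3 catalytic subunits had no difference between groups larger than the spread between mice. Psmb5, the chymotrypsin-like subunit and a known NRF2 target, was at 40.5, 31.0, 32.2 and 36.1 CPM in the young controls and 36.0, 33.9, 32.3 and 37.2 CPM in the old controls. In young NACET mice it was 30.2 at the lowest, 33.5 at the median and 44.5 at the highest CPM, and in old NACET mice 31.8 at the lowest, 36.1 at the median and 38.2 at the highest CPM. All 4 groups overlapped. The log2 change with NACET was 0.030 (95% interval -0.23 to 0.29) in young and 0.017 (-0.12 to 0.15) in old mice. For Psmb6 it was 0.013 (-0.19 to 0.21) and -0.021 (-0.14 to 0.095), and for Psmb7 -0.023 (-0.24 to 0.19) and 0.013 (-0.075 to 0.10); without young control 1 the value of Psmb7 in young mice turned to 0.097. All 6 intervals lay within a 1.41-fold change.

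All 7 beta ring genes had negative estimates with age in both controls and NACET mice, with medians of -0.081 and -0.11, and none was called. In controls this rested on young control 1: without it 4 of the 7 were positive, the median was 0.019, and 6 of the 7 alpha ring genes were positive. The smallest p of the core was that of the alpha subunit Psma4 in old against young NACET mice. Psma4 was at 39.7 at the lowest, 41.2 at the median and 45.9 at the highest CPM in young NACET mice. It was at 37.5 at the lowest, 39.2 at the median and 41.6 at the highest CPM in old NACET mice, so the groups overlapped. The log2 change was -0.16 (SE 0.051, edgeR adjusted p = 0.0851), and it was -0.19 (-0.42 to 0.046) in the controls, and -0.063 there without young control 1. Psma4 is among the genes whose transcript lies almost whole in a copy. Psmb2, a structural beta subunit, had -0.12 in the same comparison (adjusted p = 0.194 by edgeR). Psma3 and Psma5 had the lowest p among the lower members with NACET in young mice, at -0.12 and -0.11. Without young control 1 they were -0.042 and 0.024, with the age in the title as a covariate 0.011 and 0.012, and with the batch tag as a covariate Psma3 was 0.042. The treated mice behind these covariate fits were young NACET 5 and 6 for the title and young NACET 5 for the tag.

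In the base, the ATPase subunit Psmc4 (mm9 chr7:28826726-28835120, minus strand) had the smallest p with age. It was at 87.8, 85.4, 85.3 and 89.1 CPM in the young controls and 80.0, 78.7, 84.7 and 81.3 CPM in the old controls. The groups did not overlap, as in 11.3% of all genes tested, and Psmc4 was the only such member. The log2 change was -0.15 (SE 0.052, edgeR adjusted p = 0.196), and it was -0.13 without young control 1. In old NACET mice Psmc4 was 81.3 at the lowest, 86.8 at the median and 96.7 at the highest CPM, a log2 difference of 0.10 (-0.0053 to 0.21) from the old controls. The ATPase subunit Psmc1 was at 83.8, 72.7, 68.6 and 77.1 CPM in young and 71.0, 70.0, 70.5 and 70.3 CPM in old controls, with -0.15 (-0.30 to 0.0032) and -0.081 without young control 1. In old against young NACET mice Psmc1 had -0.14 (edgeR adjusted p = 0.0907).

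The ubiquitin receptor Psmd4 was at 109 ± 8.22 CPM in the 4 young controls and at 103 ± 3.22 CPM (both mean ± SD) in the 4 old ones. The change on the log2 scale was -0.14 (-0.29 to 0.015) with age (-0.068 without young control 1) and 0.091 (-0.0048 to 0.19) with NACET in old mice. On CPM, Psmc5 did not overlap between old control (102 to 109.7 CPM) and old NACET mice (110.0 to 126 CPM), with 0.089 (-0.0075 to 0.19, edgeR adjusted p = 0.384). With the TMM factors applied these groups overlapped. Psmd1, the large scaffold of the base and the member with the most reads, was at 144 ± 4.83, 147 ± 8.00, 153 ± 5.82 and 156 ± 3.10 CPM (mean ± SD) in young mice without and with NACET and in old mice without and with NACET, in that order.

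In the lid, Psmd7 (mm9 chr8:110104281-110112382, minus strand), the partner of the deubiquitinase Psmd14, had the smallest p of any member with NACET. In old controls it was 69.1, 66.7, 68.4 and 68.9 CPM. In old NACET mice it was 71.2 at the lowest, 73.3 at the median and 74.6 at the highest CPM, so on CPM all 6 treated libraries lay above all 4 controls. Groups did not overlap in 3.57% of all genes tested in this comparison, and in 2 of the 43 members, Psmd7 and Psmc5. These shares are on CPM, which do not hold the TMM factors. Over the 20 libraries the factors were 1.032 in old NACET 1 and 0.997 in old control 4. With the factors applied the groups overlapped narrowly in Psmd7, and they overlapped in Psmc5. The log2 change was 0.092 (SE 0.036, edgeR adjusted p = 0.252), a small step against a low spread. In 668-day mice only, with old NACET 1 and 2 as the treated mice, it was 0.063 (adjusted p = 0.793 by edgeR). In young mice Psmd7 was 69.0, 66.2, 63.4 and 67.5 CPM in controls and 66.3 at the lowest, 71.0 at the median and 76.3 at the highest CPM with NACET, with overlap and a log2 change of 0.089 (-0.027 to 0.21). The interaction of NACET with age was -0.00060 (-0.12 to 0.12).

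Psmd14, which removes ubiquitin chains from substrates, was at 56.5 ± 4.63, 57.9 ± 3.55, 57.3 ± 1.99 and 58.6 ± 2.57 CPM (mean ± SD) in the same order of groups. Psmd11, a lid subunit known to promote assembly of the complex, was at 38.3 ± 4.56, 39.5 ± 1.82, 37.7 ± 1.44 and 39.0 ± 1.89 CPM. Psmd8 had the largest estimate with age in controls: 128, 108, 104 and 117 CPM in young and 106, 103, 95.1 and 105 CPM in old controls. The ranges overlapped, the log2 change was -0.21 (SE 0.076, edgeR adjusted p = 0.201), and it was -0.13 without young control 1 and -0.28 among labelled males without old control 4. In NACET mice it was -0.14 (-0.27 to -0.0083, edgeR adjusted p = 0.208).

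The activators had their highest sums in old NACET mice. Their summed level, with the inhibitor Psmf1, was 237, 259, 257 and 266 CPM in young controls and 267, 268, 276 and 259 CPM in old controls. It was 246 at the lowest, 263 at the median and 268 at the highest CPM in young NACET mice. It was 274 at the lowest, 278 at the median and 286 at the highest CPM in old NACET mice, without overlap between the treated ages on this scale. The sums of the other subcomplexes overlapped between these groups. CPM do not hold the TMM factors. Over the 20 libraries these were 1.029 in old NACET 5, the lowest of its group in this sum. In young NACET 1, 5 and 6 they were 0.937, 0.988 and 0.961. With these factors applied the treated ages overlapped. The core sum did not follow: it was 734 at the lowest, 813 at the median and 887 at the highest CPM in young and 755 at the lowest, 798 at the median and 836 at the highest CPM in old NACET mice.

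The largest contribution was that of Psme4 (mm9 chr11:30671726-30780361, plus strand), the nuclear activator PA200. Psme4 was at 88.0, 98.2, 106 and 107 CPM in young controls and 106, 106, 119 and 104 CPM in old controls. It was 85.0 at the lowest, 99.1 at the median and 108 at the highest CPM in young NACET mice. In old NACET mice it was 107 at the lowest, 116 at the median and 119.9 at the highest CPM, overlapping the young only through the lowest old and the highest young library. The log2 change in old against young NACET mice was 0.17 (SE 0.055, edgeR adjusted p = 0.0784). It passed the threshold with DESeq2 (adjusted p = 0.0334), with labelled sex as a covariate (0.0206), among labelled males (0.0315) and without young NACET 5 (0.0461), and the adjusted p was 0.123 without young NACET 2, the library with the lowest Psme4. In 119-day and 668-day mice only the change was 0.11 (adjusted p = 0.402 by edgeR), and with the replicate number as a block it was 0.18 (0.160). The former fit held young NACET 5 and 6, labelled female, and old NACET 1 and 2, labelled male. Age and labelled sex cannot be told apart in it. In controls the change was 0.076 (-0.073 to 0.22), 0.026 without old control 3 and 0.032 without young control 1. Psme4 has the longest transcript of the members and was lowest in the 2 libraries with the fewest reads outside genes, and a part of RNA quality was not tested.

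Psme1 and Psme2 encode the interferon-inducible activator PA28 and Psme3 its nuclear relative. Psme1 was at 17.6, 15.6, 13.8 and 15.8 CPM in young controls and 19.2, 18.9, 17.3 and 17.0 CPM in old controls, with 0.15 (-0.043 to 0.35). Young and old NACET mice overlapped, at 14.3 to 19.3 and 17.1 to 19.8 CPM. Psme2 was at 7.26 ± 0.615 CPM in the 4 old controls and at 8.28 ± 0.538 CPM (both mean ± SD) in the 6 old NACET mice, with 0.18 (-0.012 to 0.36), and its copy makes that level uncertain. Psme3 was at 91.3 ± 4.31, 96.0 ± 2.45, 92.1 ± 2.13 and 96.9 ± 2.77 CPM (SD), and had 0.063 (-0.051 to 0.18) with NACET in young and 0.065 (-0.019 to 0.15) in old mice. The inhibitor Psmf1 stayed within 38.8 to 43.6 CPM in young controls and 40.3 to 42.5 CPM in old controls.

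The assembly genes had the lowest median level of the subcomplexes, 14.4 CPM, and with NACET in old mice the widest median interval on the log2 scale, 0.30 against 0.19 to 0.23 in the others. Psmg1, which pairs with Psmg2 to build the alpha ring, was 12.6, 12.4, 13.6 and 14.8 CPM in old controls. It was 14.2 at the lowest, 15.2 at the median and 15.6 at the highest CPM in old NACET mice, with overlap through 1 control, and the log2 change was 0.17 (SE 0.073, edgeR adjusted p = 0.294). Its partner Psmg2 had the opposite sign, -0.081 (-0.21 to 0.048), at 22.8 to 24.8 CPM in old controls and 20.6 to 23.8 CPM in old NACET mice. Psmg3 and Psmg4, the other chaperone pair, had -0.13 (-0.32 to 0.056) and 0.042 (-0.19 to 0.27). In the interaction of NACET with age Psmg2 and Psmg3 had the smallest p of all members, at -0.14 (-0.33 to 0.049) and -0.24 (-0.56 to 0.090); without young control 1 they were -0.20 and -0.37. The base chaperones passed no test either, and their group means ran from 52.8 to 53.8 CPM for Psmd5, 29.1 to 31.2 for Psmd9 and 10.8 to 11.4 for Psmd10.

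Among the genes that work with the proteasome, 29 of 31 listed partners were tested and 0 were called by edgeR in any comparison. An unadjusted p under 0.05 was found for 3 of them (10.3%, beside 16.3% of all genes) with age in controls, 1 (3.45% beside 14.4%) with NACET in old mice, 4 (13.8% beside 21.1%) with age in NACET mice and 0 elsewhere. DESeq2 called Psmb8 and Uba1 with age in controls, beside 4.35% of all genes with an adjusted p, and Uba1 with age in NACET mice, beside 7.33%. The largest estimate was that of Psmb8, the immunoproteasome counterpart of Psmb5, at 2.68, 1.93, 1.26 and 2.05 CPM in young controls and 3.97, 4.31, 2.79 and 4.15 CPM in old controls. The groups did not overlap, as in 3 of the 29 partners tested (10.3%) and 11.3% of all genes. The log2 change was 0.91 (SE 0.22, edgeR adjusted p = 0.0722). It was 1.10 (adjusted p = 0.0246 by edgeR) without young control 1 and 0.63 (0.456) among labelled males without old control 4, and DESeq2 gave an adjusted p of 0.0103. The 5 microglial markers, whose sum was 15.9 to 23.6 CPM in young and 24.9 to 26.9 CPM in old controls, moved with it, as did the summed interferon response genes, at 88.2 to 96.7 CPM in young and 114 to 129.8 CPM in old controls. Their part was not tested, and in whole retina, more cells of a type and more RNA per cell cannot be told apart. In old against young NACET mice the log2 change of Psmb8 was 0.21, and with NACET in old mice it was -0.27. The microglial sum was 15.2 to 24.5 CPM in young and 24.7 to 30.9 CPM in old NACET mice. The interferon response sum was 85.4 to 242 CPM in young and 111 to 136 CPM in old NACET mice. Young NACET 3, with 5.24 CPM of Psmb8, had the highest sum of interferon response genes, at 242 CPM. Per kilobase, Psmb8 was 2.097% to 3.54% of Psmb5 in young controls and 4.63% to 6.81% in old controls, where the copy of Psmb5 makes the level of the denominator uncertain.

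Psmb10, the counterpart of Psmb7, was at 5.71 to 8.35 CPM in young and 6.02 to 7.62 CPM in old controls, a log2 change of -0.071 (-0.38 to 0.24) that turned to 0.040 without young control 1. Psmb9 was listed at 0 in all 20 libraries, and the mm9 annotation holds 2 overlapping entries of that name, and whether this zero reflects expression or counting was not tested. Pomp, the chaperone that closes the core, followed the core genes in young control 1 (81.6 CPM against 58.1, 54.3 and 70.8 CPM) and had -0.18 (-0.43 to 0.072) with age, or -0.048 without that library. Adrm1, a ubiquitin receptor of the base, had -0.035 (-0.23 to 0.16) with age and 0.060 (-0.12 to 0.24) with NACET in old mice. Nfe2l1, which encodes the factor that drives proteasome genes when the protease is inhibited, was at 267 ± 12.3 CPM in the 4 young controls and at 252 ± 19.0 CPM (both mean ± SD) in the 4 old ones, with -0.13 (-0.27 to 0.0039). Uba1, the enzyme that activates ubiquitin, was 395, 402, 389 and 405 CPM in young controls and 345, 364, 354 and 362 CPM in old controls. Here too the groups did not overlap, as in 10.3% of the partners tested and 11.3% of all genes. The log2 change was -0.21 (SE 0.056, edgeR adjusted p = 0.0931).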

How the data were processed

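Retinal mRNA was measured in 20 libraries. The authors deposited unnormalized read counts by gene. They had aligned single-end reads to mm9 with TopHat 2.1.0 and counted exon reads with HTSeq-count 0.11.2 without regard to strand, so reads of genes that overlap on opposite strands could not be told apart; which annotation they counted on is not given in the sources used here. Reads with several alignments (6.65% to 7.92%) were set aside by the counter.

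CPM were computed on the sum of gene counts, without the counter's summary rows and 1 unnamed row (at most 0.00218% of counts). Differences were tested with edgeR 4.0.16 (R 4.3.3): TMM, filterByExpr, quasi-likelihood test, Benjamini-Hochberg over all genes tested, called at an adjusted p under 0.05. Each pairwise comparison was fitted on its 2 groups and the interaction on all 20 libraries, and the steps were tested on simulated data. DESeq2 1.42.0 was an alternative, and 100 alternative fits were run in all, 3 of them chosen after seeing the data. Intervals are 95% intervals from the fit, and rest on the spread between mice.

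The members and gene lists were chosen with earlier results of these data known. Named were members called in any comparison, the 3 members with the smallest p in each direction of each comparison, genes fixed by role, the highest and lowest member of each subcomplex, and 6 fixed partners; Uba1 and Psme2b-ps were chosen after their values were seen. Same-numbered libraries of 2 groups did not deviate together in every pair (correlations from -0.157 to 0.123), so replicate numbers were not used as a block.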

Additional observations from a re-analysis of the deposited data

Results flagged for a closer look

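In 208 sets of values (each member, Psmb8, Psmb10 and each summed subcomplex, in each group), 8 values, in 5 libraries, lay far from the rest of their group by Dixon's criterion, where chance alone flags about 1 in 20 sets, or 10.4 here.

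Old control 3 was low in Psmb4 (99.8 CPM against 105.9 to 106.4 in the other old controls) and high in the ATPase gene Psmc6 (148 against 124 to 128 CPM) and in Psme4 (119 against 104 to 106 CPM). Young NACET 2 was high in Psmc3 (157 against 119.9 to 134 CPM) and in Psmg2 (24.4 against 21.8 to 22.7 CPM). Young NACET 6 was high in Psmc6, at 153 CPM against 121 to 132 CPM. Old NACET 2 was low in the lid gene Psmd12 (56.7 against 62.4 to 64.9 CPM), and old NACET 1, the library with lens transcripts, was low in the lid gene Psmd13 (55.5 against 60.8 to 63.6 CPM). No effect of NACET differed between the ages by the interaction test of any member.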

How the results depend on the processing

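In old against young NACET mice, DESeq2, the labelled sex as a covariate and labelled males only each called 1 member, Psme4, in place of 0; leaving out single libraries gave 0 to 1 there and 0 in the other 4 comparisons, with 1 without young NACET 5 (Psme4) and without old NACET 6 (Psmc1). In old against young NACET mice the main fit called 4.88% of all genes and DESeq2 7.33%, and with age in controls DESeq2 called 4.35%. Shares for the other fits are not given here. Of the partners, DESeq2 called 2 with age in controls and 1 with age in NACET mice, where a fit of all 20 libraries, the labelled sex as a covariate and labelled males only called 1 as well; leaving out single libraries gave 0 to 1 in both comparisons (1 without young control 1, Psmb8, and without young NACET 3, Uba1) and 0 in the others.

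The members' median log2 change ranged over the fits without 1 library from -0.098 to 0.012 with age in controls, -0.024 to 0.080 with NACET in young mice, 0.015 to 0.038 with NACET in old mice, -0.065 to -0.024 with age in NACET mice and -0.049 to 0.052 in the interaction; the largest moves were without young control 1. The interaction median was also -0.042 in 119-day and 668-day mice only. Its treated mice were young NACET 5 and 6, labelled female, and old NACET 1 and 2, labelled male.

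Some single genes changed sign in young NACET against control mice. With the batch tag as a covariate Psma3 was 0.042 and Psmb8 -0.22. With the age in the title as a covariate Psma3 was 0.011, Psma5 0.012 and Psmb8 -0.053. In 119-day mice only, Psma3 was 0.012, Psma5 0.012 and Psmb8 -0.052. The fits by title age and in 119-day mice rest on the same treated mice, young NACET 5 and 6, both labelled female. The batch tag fit rests on young NACET 5. Over the fits without 1 library Psma5 ran from -0.19 to 0.024, the latter without young control 1. In the interaction Psme1 was 0.011 among labelled males. The cause was not tested.

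With the replicate number as a block, the members called stayed at 0 in all 5 comparisons and the medians were -0.048, 0.022, 0.014, -0.045 and 0.015, while Psmf1 turned to 0.0075 in young mice; over all genes the block moved the calls from 234 to 158, 90 to 37, 0 to 13, 795 to 542 and 0 to 0. The numbers do not pair the libraries by their labels. Membership held 43 genes on TMM library sizes too. Depth limits Psmg4 and Psme2 most, with 93 and 122 reads in their lowest libraries, and age, labelled sex and cohort cannot be fully told apart in these groups.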

Other observations

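The members varied less between old mice than between young mice. The median SD of log2(CPM + 1) within a group was 0.135 over the 43 members in young controls, 0.0967 in young NACET mice, 0.0494 in old controls and 0.0678 in old NACET mice. Over all 11997 genes with a mean of 5 CPM or more it was 0.120, 0.126, 0.0929 and 0.0888 in the same order. The core genes had the widest spread in young controls, with a median SD of 0.199, against 0.105 in the regulatory particle, and 0.0457 and 0.0492 in old controls. These are descriptions with no test, and the young groups also mixed labelled sexes. The old controls held old control 4, whose Xist and Y-linked counts went against its male label. Young control 1 was the highest of its group for all 14 core genes.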
